A study of Homo sapiens with 18 samples.

Results

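The clustered protocadherins are cell surface adhesion proteins encoded by 3 gene clusters, PCDHA, PCDHB and PCDHG, that follow each other on the long arm of chromosome 5. The 51 genes described here were taken from the 57905 Ensembl gene IDs of the count files by symbol, as every protein-coding PCDHA, PCDHB or PCDHG isoform gene. A further 5 rows with matching symbols were not protein coding and were left out, and no row was analysed here under the symbols PCDHB16 or PCDHGB5. A row without a symbol that lies inside the beta cluster is described with the rows that are not members. The genes fall into 13 alpha, 15 beta, 12 gamma A and 6 gamma B genes and the 5 C-type genes PCDHAC1, PCDHAC2, PCDHGC3, PCDHGC4 and PCDHGC5.

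RNA was sequenced from BE(2)-m17 cells, a human neuroblastoma line, in 3 experiments (RNA1, RNA2 and RNA3), each with 3 libraries of each of 2 lines. Every line carried the APP vector pSBbi-Hyg-APP. The empty vector control cells (Puro) also carried pSBbi-Pur, and the ABCC1-overexpressing cells carried pSBbi-Pur-ABCC1(WT), a codon-optimised ABCC1 insert in the same transposable vector. ABCC1 is an efflux transporter of the plasma membrane. Cells were plated at 14000000 per well, without the selecting antibiotics, and lysed on day 4. The vectors were transposed into the cells and stable lines were selected, so the libraries of a group are cultures of 1 line and p-values measure only the spread between these cultures. In the study the repeat experiments used cryopreserved cells and newly transfected cells, and the labels do not say which of RNA2 and RNA3 is which, so the lines need not be the same in all 3 experiments. Differences between the lines other than ABCC1, such as the sites of integration, cannot be told apart from it. The methods name a TruSeq kit for RNA1 and a SMARTer total RNA kit for the later experiments, whereas the labels of RNA1 name both. The lines were therefore compared with each experiment normalised and tested alone. Only the test between experiments and 1 alternative fit normalised all 18 libraries together.

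In neurons the clustered protocadherins are known for giving single cells different combinations of isoforms. Each alpha and gamma variable exon has its own promoter and is spliced to constant exons shared by its cluster. The beta genes are single exons, though PCDHB9 has 2 exon blocks in the annotation of the counts. Promoter choice depends on DNA methylation and on looping by CTCF and cohesin, and the proteins bind like isoforms on neighbouring cells. The counts here leave out reads on exons shared by several genes, so they rest mainly on the variable exon. Levels are compared between genes as normalised counts scaled to a common library total (CPM) per kilobase of exon that no other gene shares.

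All 51 genes are on the plus strand. On GRCh37, the build of the counts, the alpha cluster runs from 140165876 to 140391936, the beta genes from 140430979 to 140627799 and the gamma cluster from 140710252 to 140892546 of chromosome 5. The shared exons follow the variable exons at the 3' end of the alpha and gamma clusters. RefSeq promoters, 250 bases before to 50 bases after a start on GRCh38.p14, were found for 45 of the 51 genes. The letters CGCT, the core of an element known in these promoters, lay between 150 and 20 bases before the start on the same strand in 41 of the 45 (91.1%), against 32.6% of all 27305 promoters. On either strand they lay in 41 of the 45 and in 13650 of the 27305. The 4 windows without these letters were those of PCDHA9, PCDHB5, PCDHB8 and PCDHGB2.

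The sequences below show this stretch for the highest pair and the lowest member of the alpha, beta and gamma A genes in RNA1, among those with the core, and for the C-type genes. They are plus strand, 5' to 3', from GRCh38.p14, with 1 core in capitals. A core here means the letters CGCT alone. These also occur in 32.6% of all promoters on the same strand and do not show that the element is present. PCDHB1, PCDHAC1 and PCDHAC2 have 2 cores between 150 and 20 bases before the start and PCDHGC3 has 4. The one in capitals is the last that belongs to CGCTGT or, where there is none, the one nearest to 55 bases before the start. The alpha genes PCDHA10 and PCDHA11 had the highest levels of their class and PCDHA7 the lowest.
PCDHA10, chr5:140855835-140855882: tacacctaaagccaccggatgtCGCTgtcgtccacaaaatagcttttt
PCDHA11, chr5:140868877-140868924: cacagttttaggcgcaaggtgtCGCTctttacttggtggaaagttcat
PCDHA7, chr5:140834166-140834213: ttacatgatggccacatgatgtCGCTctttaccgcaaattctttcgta
The core stood 40, 58 and 81 bases before the start in PCDHA10, PCDHA11 and PCDHA7. The letters TGTCGCT, which contain the core, were in 10 of 11 alpha promoters and 0 of 13 beta promoters, and in 0.344% of all promoters on the same strand (0.656% on either strand). The beta genes PCDHB4 and PCDHB15 were the highest of their class and PCDHB1 the lowest.
PCDHB4, chr5:141121717-141121764: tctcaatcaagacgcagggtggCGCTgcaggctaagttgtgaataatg
PCDHB15, chr5:141245308-141245355: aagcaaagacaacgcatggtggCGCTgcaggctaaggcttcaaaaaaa
PCDHB1, chr5:141051268-141051315: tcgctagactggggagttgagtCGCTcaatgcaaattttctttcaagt
Here TGGCGCT was found in 10 of 13 beta and 0 of 11 alpha promoters, against 0.919% of all promoters on the same strand (1.76% on either strand). For the gamma A genes, PCDHGA1 and PCDHGA9 were the highest and PCDHGA8 the lowest.
PCDHGA1, chr5:141330397-141330444: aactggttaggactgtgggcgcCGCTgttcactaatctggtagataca
PCDHGA9, chr5:141402708-141402755: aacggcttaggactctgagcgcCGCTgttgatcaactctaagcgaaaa
PCDHGA8, chr5:141392562-141392609: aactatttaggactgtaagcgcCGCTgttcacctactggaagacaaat
The letters CGCTGT stood in 10 of 11 gamma A promoters, against 2.64% of all promoters on the same strand (4.96% on either strand). They also stood in 3 of 4 C-type, 5 of 11 alpha, 3 of 6 gamma B and 1 of 13 beta promoters, and TGTCGCT in 3 of 11 gamma A promoters. The high and low gamma A genes shared this stretch. In the C-type genes the surrounding letters differed more.
PCDHAC1, chr5:140926214-140926261: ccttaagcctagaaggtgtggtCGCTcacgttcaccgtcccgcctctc
PCDHAC2, chr5:140966359-140966406: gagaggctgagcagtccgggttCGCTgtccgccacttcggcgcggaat
PCDHGC3, chr5:141475874-141475921: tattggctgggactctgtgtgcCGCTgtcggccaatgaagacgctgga
PCDHGC4, chr5:141484946-141484993: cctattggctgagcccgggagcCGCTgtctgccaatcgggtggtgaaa
The longer letter strings were picked after the promoters had been read, and a match describes the sequence only.

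The isoform genes differed widely in level within each line. In RNA1, 15 of the 51 genes had at least 1 CPM per kilobase in every Puro library, and the same number did in every ABCC1 library. The alpha cluster was held mainly by 4 of its 15 genes, since PCDHAC2 (41.1% ± 1.74, SD, n = 3), PCDHA10 (19.0% ± 1.43), PCDHAC1 (17.3% ± 0.747) and PCDHA11 (12.2% ± 0.821) took most of the summed alpha level in Puro cells. Of the level summed over the 15 beta members, PCDHB4 held 27.9% ± 2.13 and PCDHB15 26.3% ± 0.820, with PCDHB6 next at 13.4% ± 0.323. This sum leaves out the row without a symbol inside the beta cluster, which had 48.3 CPM in Puro cells. PCDHGC3 alone held 62.2% ± 1.42 of the gamma cluster, followed by PCDHGC4 (7.39% ± 0.603) and PCDHGA1 (7.03% ± 0.450). PCDHGC3 and PCDHAC2 were the 2 highest of the 51 members, at 25.8 ± 0.440 and 19.3 ± 0.958 CPM per kilobase in Puro cells.

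**Figure D1:**
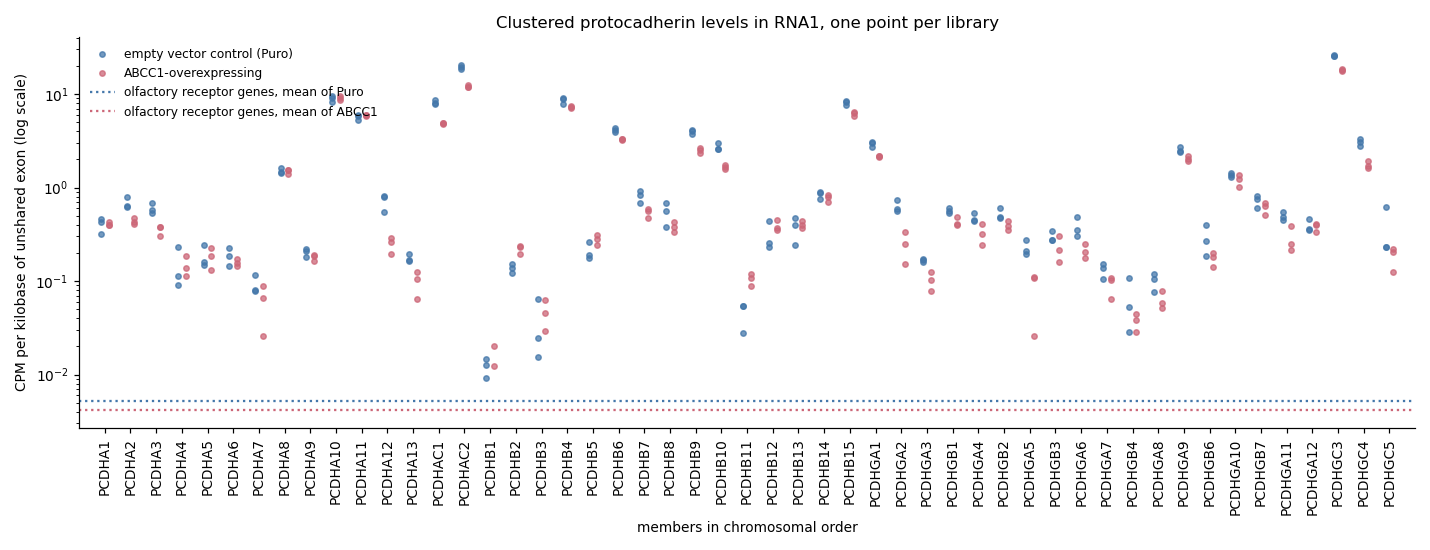
Level of each clustered protocadherin in RNA1, as CPM per kilobase of unshared exon on a log axis, in chromosomal order with 1 point per library, and dotted lines at the mean level of 350 olfactory receptor genes. PCDHGC3 is highest in both lines at 25.8 (Puro) and 18.02 (ABCC1), and PCDHB1 is lowest, with a library at 0 that cannot be drawn on this axis.

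Other genes were close to silent. PCDHB1, the first gene of the beta cluster, had 1 count in each Puro library of RNA1 and 0, 1 and 3 counts in the ABCC1 libraries. PCDHB3 had 2, 2 and 6 counts in Puro and 5, 6 and 8 counts in ABCC1 cells. The filter on low counts removed both from the test, as it did PCDHA7, PCDHGA7, PCDHGA8 and PCDHGB4. A level in a culture does not say whether few cells use an isoform or many cells use it weakly, and these cannot be told apart here.

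Of the 51 genes, 45 had enough counts to be tested between the lines in RNA1. At an adjusted p of at most 0.05, 22 differed (48.9%), against a background of 37.6% of the 16995 genes tested. The ABCC1-overexpressing cells were lower for 20 of them (44.4% of the members tested, background 19.7%) and higher for 2 (background 17.9%). The median log2FC of the members was −0.41, against 0.01 over all genes tested. In 25 members all ABCC1 libraries lay below all Puro libraries (background 25.7%), and in 2 they lay above (background 24.7%). Summed over the 51 genes, the Puro libraries had 333 to 345 CPM and the ABCC1 libraries 248 to 254 CPM.

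**Figure D2:**
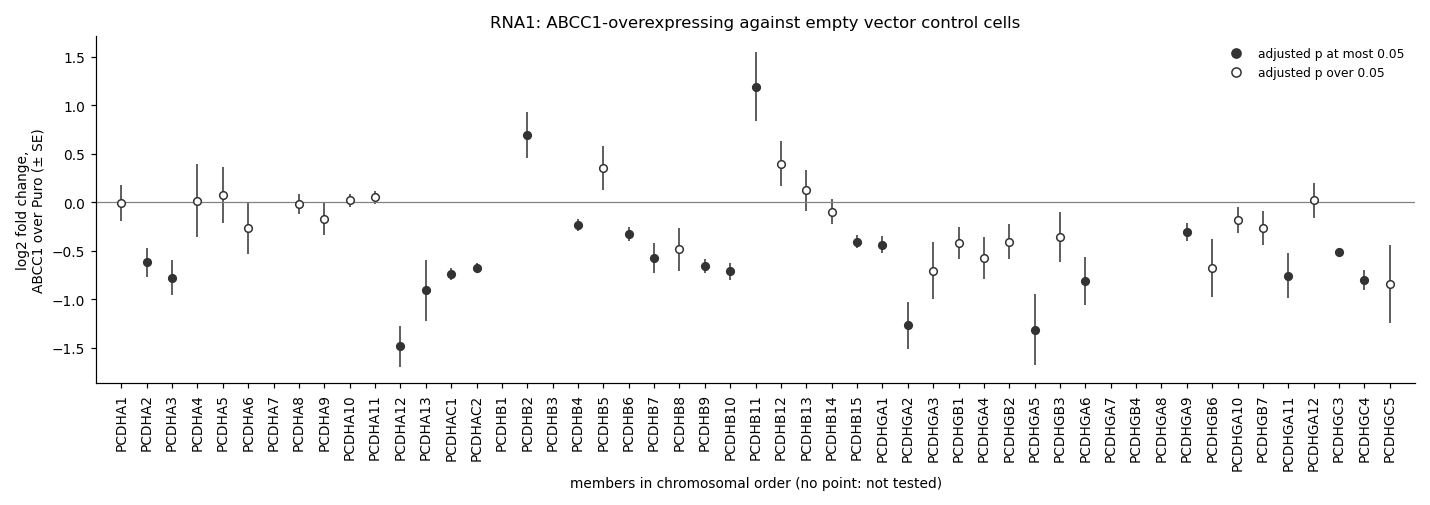
The log2FC of ABCC1-overexpressing over Puro cells in RNA1 with its standard error, for the 45 members tested, in chromosomal order. Filled points passed an adjusted p of 0.05, and 20 of the 22 lie below 0.

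The C-type genes sit at the 3' end of the alpha and gamma clusters and are known for use that is less variable from neuron to neuron. In RNA1, 4 of the 5 were called lower in ABCC1-overexpressing cells (background 19.7%). PCDHGC3, an isoform known for effects on Wnt signalling and dendrite growth, had 65.2, 64.2 and 66.4 CPM in the Puro libraries and 46.8, 45.7 and 44.6 CPM in the ABCC1 libraries. The groups did not overlap, and the log2FC was −0.52 ± 0.04 (SE, adjusted p = 9.45e-06, edgeR). PCDHAC2 had 56.9, 60.2 and 62.8 CPM in Puro and 37.4, 38.5 and 36.6 CPM in ABCC1 cells, again apart, with a log2FC of −0.68 ± 0.05 (SE, adjusted p = 3.91e-06, edgeR). PCDHAC2 is known as the alpha isoform of serotonergic neurons.

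PCDHAC1 had 24.1, 24.6 and 26.4 CPM in Puro and 14.8, 15.0 and 15.2 CPM in ABCC1 cells (log2FC −0.73 ± 0.06 SE, adjusted p = 6.77e-06, edgeR). PCDHGC4 had 6.81, 7.56 and 8.06 CPM in Puro and 4.72, 4.18 and 3.93 CPM in ABCC1 cells (log2FC −0.80 ± 0.10 SE, adjusted p = 0.000187, edgeR). In both genes every Puro library was above every ABCC1 library. PCDHGC5 had few counts, 25, 42 and 18 in Puro and 31, 10 and 29 in ABCC1 libraries. After normalisation its groups did not overlap, at 0.575, 1.54 and 0.571 CPM against 0.548, 0.310 and 0.500 CPM, yet its log2FC of −0.84 ± 0.40 did not pass the test (adjusted p = 0.129, edgeR). It was called without the filter on low counts.

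The alpha genes divided. PCDHA10 and PCDHA11, the most abundant of the 13, had nearly equal levels in the lines. PCDHA10 had 22.9, 22.1 and 20.01 CPM in Puro and 23.0, 22.1 and 21.0 CPM in ABCC1 cells (log2FC 0.02 ± 0.07 SE, adjusted p = 0.825, edgeR). PCDHA11 had 14.4, 13.9 and 12.8 CPM in Puro and 14.4, 14.4 and 13.8 CPM in ABCC1 cells (log2FC 0.05 ± 0.07 SE, adjusted p = 0.577, edgeR). The same held for PCDHA8, with 3.98, 3.53 and 3.58 against 3.802, 3.38 and 3.76 CPM and a log2FC of −0.02 ± 0.10 (adjusted p = 0.910, edgeR). The groups of all 3 genes overlapped. With PCDHAC1 and PCDHAC2 lower, the share of PCDHA10 in the alpha cluster was 25.4% ± 0.786 in ABCC1 against 19.0% ± 1.43 in Puro cells, and that of PCDHA11 16.6% ± 0.158 against 12.2% ± 0.821 (SD, n = 3).

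Of the 12 alpha genes tested, 4 were called (background 37.6%), all of them low in level and lower in ABCC1-overexpressing cells. PCDHA12, which lies between PCDHA11 and PCDHA13, had 1.86, 1.29 and 1.90 CPM in Puro and 0.619, 0.465 and 0.690 CPM in ABCC1 cells, the largest fall of any member (log2FC −1.48 ± 0.21 SE, adjusted p = 0.000327, edgeR). PCDHA13 (−0.91 ± 0.31, adjusted p = 0.0422) and PCDHA3 (−0.78 ± 0.18, adjusted p = 0.00644) also fell, as did PCDHA2 (−0.62 ± 0.15, adjusted p = 0.00839), each with no overlap between the lines. PCDHA13 rests on 9 to 21 counts per library and passed the filter on low counts through its Puro libraries, where it was higher. Its call was lost with DESeq2, with other filters on low counts and with the replicate block. It was also lost without Puro replicate 1, 2 or 3 or ABCC1 replicate 1.

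Among the 13 beta genes tested, 6 were lower (background 19.7%) and 2 higher (background 17.9%) in ABCC1-overexpressing cells. The highest, PCDHB4, had 31.9, 28.6 and 33.1 CPM in Puro and 25.996, 26.6 and 26.9 CPM in ABCC1 cells (log2FC −0.24 ± 0.06 SE, adjusted p = 0.0123, edgeR), a call that was lost without Puro replicate 1 or 3. PCDHB15, the last gene of the cluster, had 20.3, 22.3 and 21.9 CPM in Puro and 16.4, 16.9 and 15.3 CPM in ABCC1 cells (log2FC −0.41 ± 0.07 SE, adjusted p = 0.000762, edgeR). PCDHB6 had 12.4, 13.1 and 13.96 against 10.3, 10.4 and 10.6 CPM (log2FC −0.33 ± 0.07 SE, adjusted p = 0.00414, edgeR). None of these 3 genes overlapped between the lines. The other falls, PCDHB7, PCDHB9 and PCDHB10, ran from −0.57 to −0.71, and that of PCDHB7 was not called without Puro replicate 2 or 3.

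The 2 beta genes that rose were both rare. PCDHB11 had 8, 5 and 3 counts in Puro and 17, 12 and 24 counts in ABCC1 cells, or 0.184, 0.184 and 0.0952 against 0.301, 0.372 and 0.414 CPM. It passed the filter on low counts only through the ABCC1 libraries, where it was higher. With at least 10 counts required in every library it was not tested. Its log2FC was 1.19 ± 0.36 (SE, adjusted p = 0.0228, edgeR). PCDHB2 rose by a log2FC of 0.69 ± 0.24 (adjusted p = 0.0414, edgeR), on 9 to 18 Puro and 17 to 37 ABCC1 counts. Neither was called by DESeq2, which called 18 members, all lower. The call of PCDHB2 was also lost whichever of the 6 libraries was left out, with other filters on low counts and with the replicate block, and that of PCDHB11 without Puro replicate 1 or 3 or ABCC1 replicate 3.

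Of 10 gamma A genes tested, 6 were lower (background 19.7%) and none was higher (background 17.9%). PCDHGA1, the first gene of the cluster, had 7.56, 7.34 and 6.69 CPM in Puro and 5.27, 5.36 and 5.38 CPM in ABCC1 cells (log2FC −0.44 ± 0.08 SE, adjusted p = 0.00221, edgeR). PCDHGA9 had 6.53, 5.91 and 5.87 against 5.23, 4.65 and 4.91 CPM (log2FC −0.31 ± 0.09 SE, adjusted p = 0.0227, edgeR), a call that was lost with DESeq2 and without Puro replicate 1 or ABCC1 replicate 2. PCDHGA10 overlapped between the lines, at 3.47, 3.34 and 3.14 against 3.34, 2.98 and 2.50 CPM (log2FC −0.18 ± 0.13 SE, adjusted p = 0.306, edgeR). The larger falls were in low genes, namely PCDHGA5 (−1.31 ± 0.37, adjusted p = 0.0170), PCDHGA2 (−1.27 ± 0.24, adjusted p = 0.00199) and PCDHGA6 (−0.81 ± 0.25, adjusted p = 0.0245). Of these, PCDHGA5 had 22, 18 and 15 counts in Puro and 15, 2 and 15 in ABCC1 libraries. It passed the filter on low counts through its Puro libraries, where it was higher. With at least 10 counts required in every library it was not tested. PCDHGA2 was called whichever library was left out, whereas PCDHGA5 was not called without Puro replicate 1 or 2, nor PCDHGA6 without Puro replicate 2 or 3 or ABCC1 replicate 3.

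No gamma B gene of the 5 tested was called (background 37.6%), although all 5 had a negative log2FC. PCDHGB7, the highest, had 1.84, 1.98 and 1.46 against 1.22, 1.55 and 1.66 CPM (log2FC −0.26 ± 0.17 SE, adjusted p = 0.267, edgeR). PCDHGB1 (−0.42 ± 0.16, adjusted p = 0.0646) and PCDHGB2 (−0.41 ± 0.18, adjusted p = 0.101) did not overlap between the lines but missed the threshold. Reads that match several of these related genes equally well were not counted, so a difference in such reads would not be seen, and counting without strand cannot part a gene from an antisense transcript.

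The later experiments were compared in the same way. In RNA2 all 51 genes had enough counts, and edgeR called 0 of them, against a background of 1.7% of 34091 genes (0.458% lower and 1.25% higher). The ABCC1 libraries lay wholly below the Puro libraries in 0 members (background 16.4%) and wholly above in 4 (background 13.5%). Only PCDHA11 and PCDHA8 had an unadjusted p under 0.05 (background 21.2%), DESeq2 and limma-voom called 0, and RLE size factors called PCDHA11. PCDHA11 had 11.4, 11.2 and 10.6 CPM in Puro and 19.3, 17.3 and 13.03 CPM in ABCC1 cells, without overlap (log2FC 0.58 ± 0.18 SE, adjusted p = 0.0872, edgeR). PCDHA8 had 5.97, 6.19 and 7.42 against 9.97, 9.57 and 8.65 CPM (log2FC 0.53 ± 0.23 SE, adjusted p = 0.196, edgeR). The median log2FC of the members was 0.08, against −0.19 over all genes, and RLE size factors moved these to 0.18 and −0.08. The sign of the members' median changed when each library had to have 10 counts (−0.05), with protein-coding genes only (−0.07), with the background covariate (−0.14) and without ABCC1 replicate 1 (−0.02).

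In RNA3 edgeR again called 0 of 51 members, against a background of 2.8% of 36509 genes (0.767% lower and 2.03% higher), as did DESeq2 and limma-voom. The ABCC1 libraries lay wholly below the Puro libraries in 4 members (background 10.9%) and wholly above in 4 (background 8.59%). An unadjusted p under 0.05 was found for 9 (background 15.2%), of which 6 were lower and 3 higher. The C-type gene PCDHGC3 had 37.4, 57.4 and 41.5 CPM in Puro and 30.3, 30.3 and 40.3 CPM in ABCC1 cells, which overlapped (log2FC −0.43 ± 0.17 SE, adjusted p = 0.153, edgeR). With protein-coding genes only, PCDHGC3 was called. PCDHB7 had the smallest adjusted p, with 9.56, 10.8 and 8.55 against 5.38, 5.93 and 7.18 CPM (log2FC −0.64 ± 0.24 SE, adjusted p = 0.143, edgeR).

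**Figure D3:**
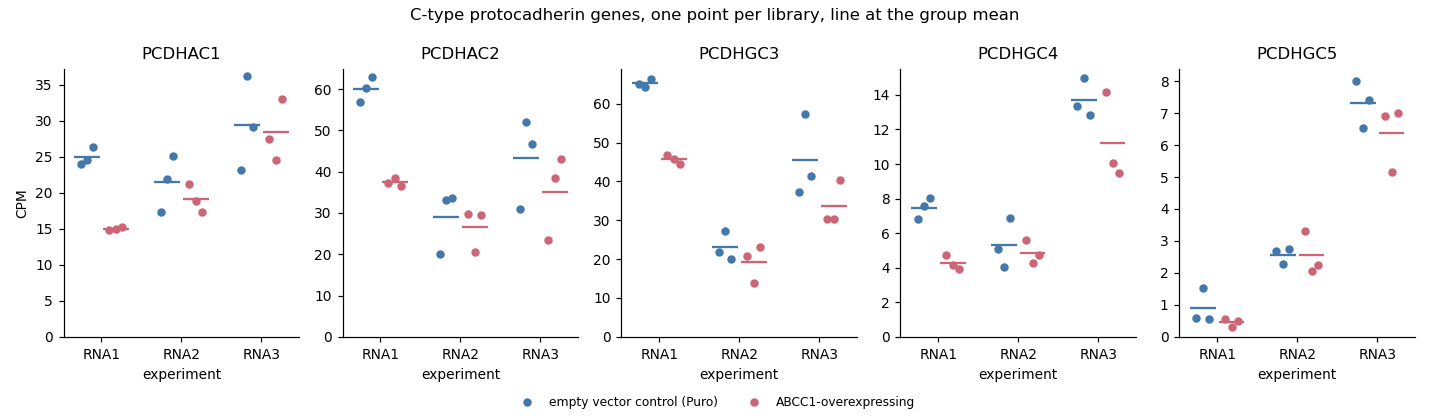
CPM of the 5 C-type genes in each library of the 3 experiments, with a line at the mean of each group and each panel on its own axis from 0. All 5 genes lie apart between the lines in RNA1, and the groups overlap in RNA2 and RNA3.

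All 5 C-type genes had a negative log2FC in each experiment, between −0.84 and −0.52 in RNA1, between −0.26 and −0.01 in RNA2 and between −0.43 and −0.05 in RNA3. Of all genes tested, 8301 of 16995, 20219 of 34091 and 21325 of 36509 had a negative log2FC, and the C-type medians were −0.73, −0.13 and −0.29 against 0.01, −0.19 and −0.09 over all genes. None passed the test in the later experiments, and some of these small values change sign with the processing. Of the 20 members lower in RNA1, 10 had a negative log2FC in RNA2 (median 0.02) and 15 in RNA3 (median −0.13). Of the 45 members tested in every experiment, 14 were negative and 8 positive in all 3. The same shares over all genes were not computed. PCDHB11, the named member with the largest rise in RNA1, was among the 8, at 1.19 ± 0.36, 0.59 ± 0.32 and 0.47 ± 0.24 (SE). In RNA1 it passed the filter on low counts only through the ABCC1 libraries, so its rise there gives no support to the later values.

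**Figure D4:**
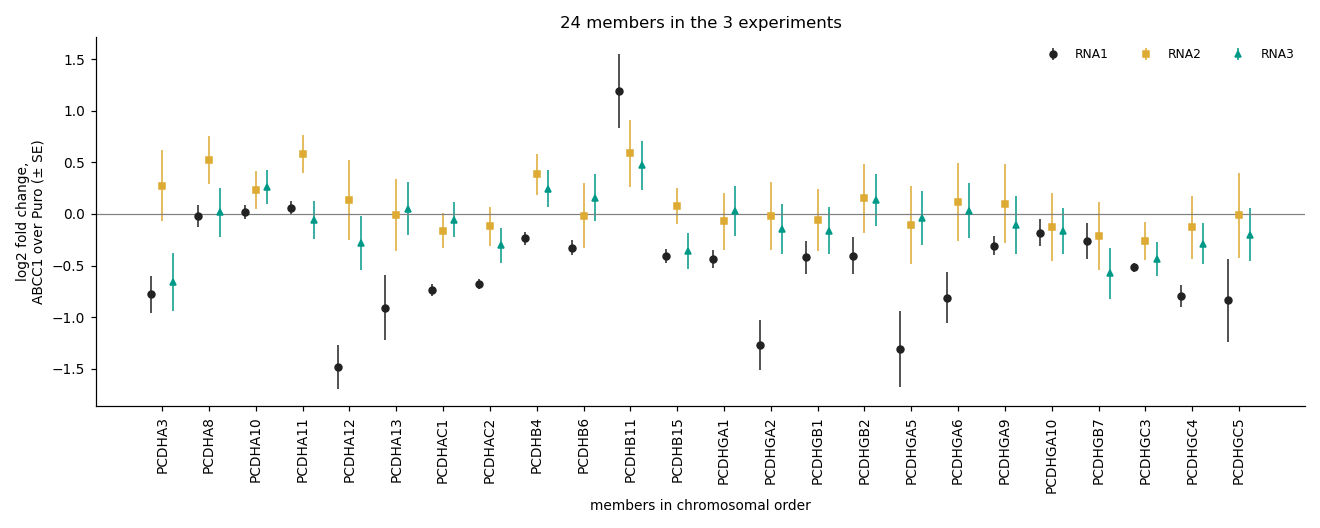
The log2FC of ABCC1-overexpressing over Puro cells in RNA1, RNA2 and RNA3, with standard errors, for the 24 members described by level or by size of change. The standard errors of abundant members such as PCDHGC3 are narrowest in RNA1 (0.04, 0.19 and 0.17), those of rare ones such as PCDHB11 are not (0.36, 0.32 and 0.24), and PCDHA12 is at −1.48, 0.14 and −0.28.

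The difference of the ABCC1 effect between the experiments was tested by the interaction of experiment and line in a fit of all 18 libraries. It called 0 of 51 members, against a background of 1.19% of 46225 genes. An unadjusted p under 0.05 was found for 8 members (background 9.04%). The smallest was that of PCDHB9, chosen after its values were seen, at an adjusted p of 0.0531. Its effect was 0.95 ± 0.23 (SE, log2) higher in RNA2 than in RNA1. DESeq2, RLE size factors and the fit with a replicate block each called PCDHB9. For the other members a p that misses the threshold does not show that the effects were equal.

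The members stood at different heights above background in the experiments. Background was read from 350 olfactory receptor genes, a family normally silent outside olfactory neurons, as CPM per kilobase. It was 0.00521 ± 0.000440 in Puro and 0.00419 ± 0.000324 in ABCC1 cells of RNA1, on 47 to 96 counts per library. In RNA2 it was 0.592 ± 0.0899 and 0.310 ± 0.152, and in RNA3 1.61 ± 0.0924 and 1.28 ± 0.161 (SD, n = 3). In each experiment all Puro libraries were above all ABCC1 libraries.

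**Figure D5:**
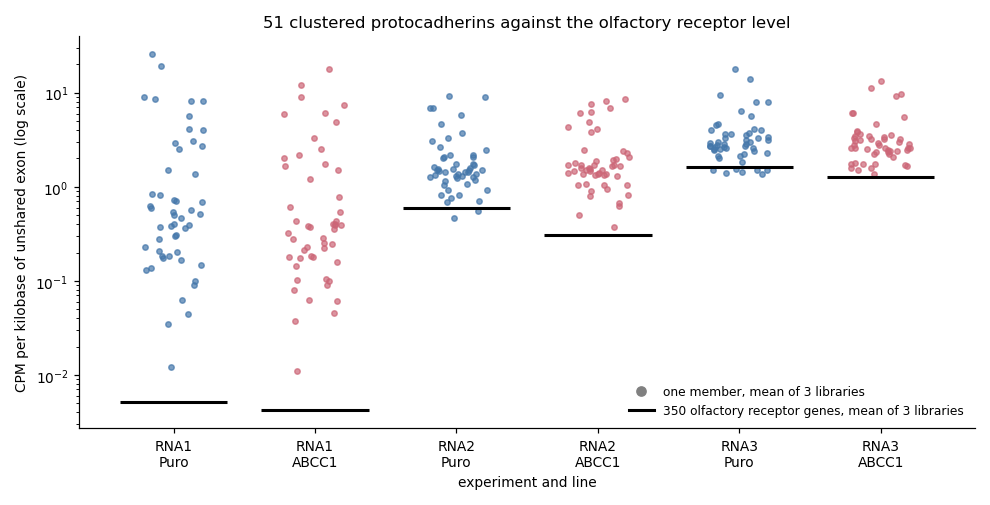
Mean level of each of the 51 members in each group as CPM per kilobase on a log axis, with a bar at the mean of the 350 olfactory receptor genes. The bar lies below the mean of every member in RNA1, and close to or among the lowest members in RNA2 and RNA3. In RNA1 PCDHB1 is nearest, at 0.0120 over a bar of 0.00521 in Puro and 0.0109 over 0.00419 in ABCC1 cells.

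The median member lay 96.0 times above this background in Puro cells of RNA1 and 90.1 times in ABCC1 cells. In RNA2 the ratios were 2.52 and 6.72, and in RNA3 1.75 and 2.17. The 6.72 rests on ABCC1 replicate 1, whose median ratio was 12.7 against 4.41 and 3.01 in the other libraries, and without it the ratio was 3.78. In RNA3, 42 members exceeded it in every Puro library and 46 in every ABCC1 library, but by over 2 times only 12 and 18 (29 without ABCC1 replicate 1). The 12 were PCDHA10, PCDHA11, PCDHAC1, PCDHAC2, PCDHB4, PCDHB9, PCDHB10, PCDHB15, PCDHGA10, PCDHGA11, PCDHGC3 and PCDHGC4. PCDHB1 had 2.25 ± 0.514 CPM per kilobase in RNA3 Puro cells, against 0.0120 ± 0.00274 in RNA1. With the background as a covariate, 5 members were called in RNA1, all lower, namely PCDHA12, PCDHAC1, PCDHAC2, PCDHB10 and PCDHGC3, where 1131 of all 16995 genes were called. In RNA3 the same fit called 1 member (PCDHAC2, lower) and 140 of all 36509 genes.

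The highest members were largely shared between the experiments, but their shares were not alike. PCDHGC3 held 62.2% ± 1.42 of the gamma level in Puro cells of RNA1, 22.01% ± 2.67 in RNA2 and 21.98% ± 5.73 in RNA3 (SD, n = 3), and net of background 29.4% ± 2.34 and 34.0% ± 8.97 in the later experiments. PCDHAC2 held 41.1% ± 1.74, 22.3% ± 4.36 and 22.2% ± 3.63 of the alpha level, and net of background 26.4% ± 4.77 and 31.1% ± 4.61 in the later experiments. Between RNA1 and RNA3 Puro cells, 9 of the 10 highest members were shared, and Spearman's rho over the 51 members was 0.70. Between RNA1 and RNA2 Puro cells 8 were shared (rho 0.69). In ABCC1 cells 8 were shared with RNA1 by each later experiment, with rho 0.68 for RNA2 and 0.60 for RNA3. These are descriptions across genes that share a library and a background, and genes are not independent replicates. PCDHAC2 led the alpha cluster, PCDHB4 or PCDHB15 the beta cluster and PCDHGC3 the gamma cluster in each of the 6 groups, among the members. A row with no symbol between PCDHB8 and PCDHB9, ENSG00000196963, is outside this ranking and the beta shares, and had 48.3 CPM in RNA1 Puro cells against 31.2 CPM for PCDHB4.

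Regulators known to act on these promoters were read from lists. CTCF, which binds the promoters and enhancers of the clusters, had 213 ± 2.96 CPM in Puro and 213 ± 1.23 CPM in ABCC1 cells of RNA1 (log2FC −0.0028 ± 0.04 SE, adjusted p = 0.960, edgeR). Of the 13 CTCF and cohesin genes, 5 were called in RNA1, all lower, and 0 in RNA2 and RNA3. In RNA1, 37.6% of all genes were called, 19.7% lower and 17.9% higher, the background for this and the next lists. Their median log2FC in RNA1 was −0.12. The cohesin subunit RAD21 fell by 0.32 ± 0.04 (log2, SE), with 392 ± 4.82 against 313 ± 8.48 CPM (adjusted p = 0.000106, edgeR). The cohesin regulators PDS5B (−0.28 ± 0.05, adjusted p = 0.00137) and PDS5A (−0.17 ± 0.04, adjusted p = 0.00644) fell as well.

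Of 14 silencing genes tested in RNA1, 9 were called, 4 higher and 5 lower (background 37.6%), with a median of −0.02. SMCHD1, a repressor of the clusters, had 97.6 ± 3.56 against 86.6 ± 1.87 CPM (log2FC −0.17 ± 0.04, adjusted p = 0.00944, edgeR). The DNA methyltransferases DNMT1 (−0.26 ± 0.04, adjusted p = 0.000427) and DNMT3A (−0.20 ± 0.05, adjusted p = 0.00720) were lower, and the histone methyltransferase SETDB1 was higher (0.20 ± 0.04, adjusted p = 0.00414). In RNA2, 1 of the 14 was called (LRIF1, higher), and 0 in RNA3.

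Genes of proteins that bind or process protocadherins were mixed. Of 12 tested in RNA1, 8 were called, 3 higher and 5 lower (background 37.6%, median 0.04). The kinase FYN (−0.23 ± 0.04, adjusted p = 0.00118) and NCKAP1, a subunit of the WAVE actin regulator (−0.23 ± 0.04, adjusted p = 0.000872), were lower. PDCD10, a partner of gamma protocadherins, was lower in RNA1 (−0.33 ± 0.05, adjusted p = 0.000588) and in RNA3 (−0.59 ± 0.17, adjusted p = 0.0290), and had −0.30 ± 0.20 in RNA2 (adjusted p = 0.378, edgeR).

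Among 10 protocadherin genes outside the clusters tested in RNA1, 3 were called, all lower (background 37.6% called and 19.7% called lower), with a median of −0.03. PCDH9 was called lower in all 3 experiments, though its groups overlapped in RNA2, with log2FC of −1.69 ± 0.06 (adjusted p = 1.19e-08), −0.86 ± 0.22 (adjusted p = 0.0484) and −0.98 ± 0.17 (adjusted p = 4.72e-05). PCDH10 (−0.52 ± 0.08, adjusted p = 0.000382) and PCDH17 (−0.35 ± 0.06, adjusted p = 0.000843) were called in RNA1 only. Of 17 genes around the clusters on chromosome 5, 6 were called in RNA1, 2 higher and 4 lower, a share near the background of 37.6%, with a median of 0.03. They include CD14 (−1.39 ± 0.34, adjusted p = 0.00858, on 4 to 17 counts), FCHSD1 (0.41 ± 0.11, adjusted p = 0.0113) and HARS2 (−0.25 ± 0.07, adjusted p = 0.0127). CD14 passed the filter on low counts through its Puro libraries, where it was higher. In RNA3, HARS1 was higher (0.57 ± 0.17, adjusted p = 0.0401, edgeR).

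The cells carried the markers of an adrenergic neuroblastoma. All 13 such markers had counts, summing to 13257 to 14375 CPM in Puro and 11428 to 12994 CPM in ABCC1 libraries of RNA1, and 9 of the 13 were called there, 3 higher and 6 lower. The 12 mesenchymal or fibroblast markers summed to 531 to 559 and 561 to 579 CPM in RNA1, with 5 higher and 3 lower. Those of Schwann cells or melanocytes came to at most 19.1 and 20.2 CPM in RNA1, with SOX10 at 0 or 1 count per library there, and to at most 27.2 and 24.9 CPM in RNA2 and 60.4 and 63.2 CPM in RNA3. Endothelial or blood markers came to at most 0.0920 CPM in RNA1, but to between 11.6 and 16.01 CPM in Puro and 2.87 and 9.81 CPM in ABCC1 libraries of RNA2, and to between 35.5 and 40.0 and 24.4 and 30.8 CPM in RNA3. The part of these shifts in the protocadherin differences was not tested. Depth ran from 8866994 to 57937653 assigned counts per library. Exogenous ABCC1 had between 51035 and 594404 counts in every ABCC1 library and at most 15 in any Puro library, which matches the labels.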

How the data were processed

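Read pairs per gene were deposited by the authors as raw counts, without normalisation. Per the file headers, they were made with featureCounts 2.0.0 on exons of Ensembl 74 (GRCh37), as fragments, without strand, with multimapping and ambiguous reads left out. The submitters' processing notes name STAR 2.7.3a. Symbols came from gene ID tables, which matched 52338 of 57905 IDs. Unshared exon bases were computed from the exons in the files.

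In R 4.3.3, edgeR 4.0.16 kept genes with filterByExpr (minimum count 10), normalised with TMM and compared the lines within each experiment with the robust quasi-likelihood test (two-sided, Benjamini-Hochberg over all genes tested, called at 0.05). The interaction of experiment and line was tested over all 18 libraries. Alternatives were DESeq2 1.42.0, limma-voom (limma 3.58.1), other scalings and filters, a block, a background covariate and each library left out. Shares net of background and background ratios by library were added after seeing the data. Scripts were tested on simulated data. Libraries of a group differed by 1.53 to 26.1 chi-square per degree of freedom. The 1.53 is between ABCC1 replicates 1 and 2 of RNA1, against 24.05 and 17.96 between these and replicate 3. Such values do not show that libraries are separate cultures, and each was taken as a replicate from its label.

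The members and lists were chosen with earlier results of these data known. Named members are the 3 highest of each class in RNA1, the C-type genes, and up to 8 called members by size of change in each experiment. PCDHA2, PCDHB2, PCDHB7, PCDHB9, PCDHB10, PCDHGB1, PCDHGB2 and the rows of the closing section were named after their values were seen. From each list, up to 3 called genes are named, with CTCF, RAD21 and SMCHD1. UHRF1, CYFIP1, MARCKS, PCDH20 and PECAM1, also on the lists, were not analysed here.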

Additional observations from a re-analysis of the deposited data

How the results depend on the processing

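The 22 members called in RNA1 became 5 with the background covariate (1131 of all 16995 genes called), 5 with a spread shared by all 18 libraries (1528 of 46225) and 0 at an adjusted p of 0.001 with an absolute log2FC of 1.5. Over the other settings 18 to 22 were called, and 15 to 20 without 1 library (15 without Puro replicate 3). The background covariate rests on few counts in RNA1 and does not overlap between the lines. In RNA2 the 0 became 1 (PCDHA11) with RLE size factors, with the shared spread and without ABCC1 replicate 3, a range of 0 to 1 when libraries were left out. In RNA3 the 0 became 1 with the background covariate and with protein-coding genes only. The replicate block gave 20, 0 and 0 calls in RNA1, RNA2 and RNA3. The labels give the groups the same replicate numbers, but same-numbered libraries had mean correlations of −0.12, −0.10 and 0.06 across genes, so the samples are not taken as paired. The paper describes weekly plating, and whether the numbers stand for weeks is not stated. For the difference between experiments, the 0 became 1 with DESeq2, RLE size factors and the replicate block, and 0 to 2 without 1 library (2 without RNA2 ABCC1 replicate 3, PCDHB9 and PCDHB10).

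At over 2 times the olfactory receptor level, the members above background fell to 23 in RNA2 Puro, 12 in RNA3 Puro and 18 in RNA3 ABCC1 cells, with 40 left in RNA2 ABCC1 cells. Net of background, 5 rather than 8 alpha genes held 80% of the alpha level in RNA3 Puro and ABCC1 cells. Of the 10 highest members by unshared length, 9 stayed with full gene length.

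The log2FC was recomputed for the named members in RNA1 and for the C-type genes alone in RNA2 and RNA3. Among these no called log2FC changed sign, and the reversed values, none of them called, were these. The background covariate gave 0.0482 for PCDHA8 in RNA1, 0.7631 for PCDHGC5 in RNA1, 0.0215 for PCDHGA10 in RNA1, 0.0911 for PCDHGC4 in RNA3 and 0.0142 for PCDHGC5 in RNA3. The shared spread gave 0.0849 for PCDHA8 in RNA1, 0.0108 for PCDHGC5 in RNA2 and 0.0211 for PCDHAC1 in RNA3. DESeq2 gave 0.1143 for PCDHGC5 in RNA2 and 0.0072 for PCDHAC1 in RNA3. RLE size factors gave 0.1139 for PCDHGC5 in RNA2 and 0.0073 for PCDHAC1 in RNA3. Without the filter on low counts the value was 0.0528 for PCDHGC5 in RNA2. Without 1 library, the log2FC ran from −0.0277 to 0.0624 for PCDHA10 in RNA1, from −0.0475 to 0.0408 for PCDHA8 in RNA1, from −0.2967 to 0.0459 for PCDHAC2 in RNA2, from −0.2898 to 0.1044 for PCDHGC4 in RNA2, from −0.2373 to 0.1303 for PCDHGC5 in RNA2, from −0.1744 to 0.132 for PCDHAC1 in RNA3. The cause was not tested.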

Other observations

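Rows of the protocadherin clusters that are not members also carried counts. The row ENSG00000196963, on the plus strand of chromosome 5 between PCDHB8 and PCDHB9, has no symbol in the tables used here. It had 48.3 ± 1.70 CPM in Puro and 36.0 ± 2.24 CPM in ABCC1 cells of RNA1 (SD, n = 3), a log2FC of −0.42 ± 0.06 (SE, adjusted p = 0.000250, edgeR). In RNA2 and RNA3 its log2FC was 0.20 ± 0.18 and −0.04 ± 0.17 (adjusted p = 0.535 and 0.948, edgeR).

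Of the beta pseudogenes, PCDHB18P had 8.78, 10.6 and 10.2 CPM in Puro and 5.39, 5.02 and 4.78 CPM in ABCC1 cells of RNA1. The groups did not overlap (log2FC −0.95 ± 0.10 SE, adjusted p = 3.18e-05, edgeR), whereas in RNA2 and RNA3 its log2FC was 0.02 ± 0.25 and −0.04 ± 0.23. PCDHB19P was also lower in RNA1 (−0.44 ± 0.14, adjusted p = 0.0330, edgeR), and PCDHB17P had 0.07 ± 0.28 (adjusted p = 0.858, edgeR). PCDHA14 had no count in any library and no exon base of its own.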
